A study of Mus musculus with 24 samples.

Results

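The glycosyltransferases described here add the sugars of mucin-type O-glycans and of the outer chains of other glycans. They were taken from a gene expression study of mouse lung as every gene with a single-gene probe set whose symbol begins with Galnt, Gcnt, B3gnt, St3gal, St6gal (St6galnac included) or Fut and ends in a number. The rule found 53 genes, measured by 110 probe sets, among 18193 genes with a single-gene probe set on the arrays. A probe set is the group of array probes that measures 1 transcript. Where a gene had several, the probe set with the highest mean signal over the 12 samples represented it. The 53 genes were 18 Galnt, 4 Gcnt, 9 B3gnt, 6 St3gal, 2 St6gal, 6 St6galnac and 8 Fut genes. Of these, 40 passed the filter on low signal and were tested, and 13 lay under it.

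The study compared lung RNA of wild-type mice and of a strain without interleukin 13 (IL-13 KO). Both received either HDM (commonly short for house dust mite) or PBS (commonly short for phosphate-buffered saline). The 4 groups of 3 samples were wild type after PBS, wild type after HDM, KO after PBS and KO after HDM. Every sample was hybridised to a set A and a set B array, 24 arrays in all. The sources used here do not give the KO allele, strain background, sex, age or dosing. Nothing in the labels says whether replicates were different animals, and p-values therefore cover only the spread among these samples, possibly technical. IL-13, a type 2 cytokine, drives mucus production in the airway. The comparisons ask which of these enzymes HDM changes and whether the change differs without IL-13.

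Mucin-type O-glycans are built in the Golgi, one sugar at a time. The Galnt enzymes start a chain by attaching N-acetylgalactosamine to serine or threonine, the Gcnt enzymes add N-acetylglucosamine branches, and the B3gnt enzymes extend chains with further N-acetylglucosamine. The sialyltransferases (St3gal, St6gal and St6galnac) and the fucosyltransferases (Fut) mostly finish the chain ends. In the airway such chains make up much of the mass of secreted mucins, and on leukocytes and vessels fucosylated and sialylated chains serve as ligands of selectins.

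The windows upstream of 3 of the genes whose calls are described below are shown because these genes move in the KO comparison and carry different parts of the glycan. Each is the stretch of 250 bases before an annotated start (RefSeq, GRCm38.p6), written 5′ to 3′ on the gene's strand. Capitals mark a match to GGAAGT, the core bound by ETS factors, searched on both strands. The other motif searched was TTC-N4-GAA, TTC and GAA with 4 bases between, the type bound by STAT6, which acts downstream of IL-13.
Galnt6 (chr15:100720478-100720727, minus strand): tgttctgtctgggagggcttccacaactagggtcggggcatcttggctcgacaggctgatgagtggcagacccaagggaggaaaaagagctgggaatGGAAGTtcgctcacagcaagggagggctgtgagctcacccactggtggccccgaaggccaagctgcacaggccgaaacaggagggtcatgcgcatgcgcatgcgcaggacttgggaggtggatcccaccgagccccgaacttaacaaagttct
St6gal1 (chr16:23290220-23290469, plus strand): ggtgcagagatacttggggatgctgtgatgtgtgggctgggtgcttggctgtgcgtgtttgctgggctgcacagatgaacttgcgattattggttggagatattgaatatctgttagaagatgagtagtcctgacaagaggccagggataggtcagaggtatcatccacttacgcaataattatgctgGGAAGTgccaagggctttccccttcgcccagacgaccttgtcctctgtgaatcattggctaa
Fut4 (chr9:14752123-14752372, minus strand): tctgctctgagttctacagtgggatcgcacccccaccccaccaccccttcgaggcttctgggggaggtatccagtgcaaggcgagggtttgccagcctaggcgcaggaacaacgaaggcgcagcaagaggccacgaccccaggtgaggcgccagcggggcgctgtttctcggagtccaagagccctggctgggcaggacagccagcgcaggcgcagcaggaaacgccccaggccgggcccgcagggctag
The Galnt6 and St6gal1 windows were chosen among several starts because they hold a match. The other window of Galnt6 and the other 2 of St6gal1 hold none, and the single Fut4 window holds neither motif. Of the 53 genes, 37 had a window in the table. GGAAGT occurred in at least 1 window of 13 of these 37 genes, and 19.7% of all 32851 windows in the table hold it. TTC-N4-GAA occurred in windows of 2 of the 37, Gcnt1 and Galnt9, against 5.85% of all windows. Neither of these genes passed the signal filter. Among the 8 genes called in any comparison that had a window, 3 held GGAAGT and 0 held TTC-N4-GAA. Genes with several windows have more chances of a match, and a match is a description of letters, not a binding site.

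Values are scaled array intensities, called signal here, and differences are given as log2(signal + pseudocount) with their standard error (SE). Such a difference is smaller than the true change where signal is low, and the level of one gene is not set against that of another because their probes differ. A gene was called when limma, fitted over 31496 probe sets, gave an adjusted p under 0.05. Alveolar type 2 cell markers, which define the labelled tissue, had a summed signal of 17470 to 22120 in every sample. In bulk RNA, fewer cells of a type and less RNA per cell cannot be told apart. Some samples stood apart. Skeletal muscle markers summed to 3040 in wild-type PBS replicate 2 and to 1751 and 6557 in wild-type HDM replicates 1 and 2, and to 208 to 471 in the other 9 samples. Across the 100 probe sets shared by both array sets, set A arrays of wild-type HDM replicate 3 and of KO PBS replicates 2 and 3 correlated best with set B arrays from the other genotype. Each probe set was compared only over arrays of its own set, while a single limma fit and p-value adjustment covered both sets. Values without the samples that stood apart are given where a call is lost. As a readout of RNA integrity, the actin ratio (5′ over 3′ signal) was 0.464 to 0.656 in KO after HDM and 0.695 to 0.832 in wild type after HDM on set A, without overlap.

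In wild-type lung, HDM changed the starting enzymes in both directions and raised 1 extending and 1 sialic acid enzyme. Galnt6, B3gnt8, Galnt12 and St3gal4 rose, and Galnt15, Galnt18 and Fut11 fell. Thus 7 of 40 tested genes were called by limma (17.5%), 4 higher and 3 lower, where 10.6% of all 14473 tested genes were called, 5.4% higher and 5.15% lower. The median difference over the 40 genes was 0.12, and over all genes it was -0.00. Of the 12 tested Galnt genes, 2 rose and 2 fell, whereas 0 of 3 Gcnt and 0 of 6 St6galnac genes were called. Unadjusted, 13 of the 40 had p under 0.05, among them 0 Gcnt genes and 1 St6galnac gene. The shares of all genes given here and below use the adjusted p. No such share at an unadjusted p under 0.05 stands beside this count or the later ones, so they show no excess.

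In KO lung, HDM raised Galnt6 again, together with St6gal1, Fut4 and Fut8, and lowered none of the 40 at the threshold. The 4 called genes (10%) compare with 11% of all tested genes (5.69% higher and 5.3% lower), and the 9 genes at an unadjusted p under 0.05 included Galnt18 and Fut11, with negative values. The median over the 40 was 0.09, and over all genes 0.01. Galnt6 was the 1 gene called in both genotypes, and 10 genes were called in any of the 5 comparisons. The 2 HDM effects share no samples, but 1 model estimates the spread over all 12 samples, so their tests are not independent. On set A the actin ratio also separated KO after PBS (0.748 to 0.854) from KO after HDM (0.464 to 0.656). On set B, which measured Galnt6 and Fut4, these groups overlapped (0.6097 to 0.897 and 0.4279 to 0.6117). The part of the actin ratio in the 4 KO calls was not tested. The plot of HDM effects gives the difference for each tested gene in both genotypes.

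**Figure D1:**
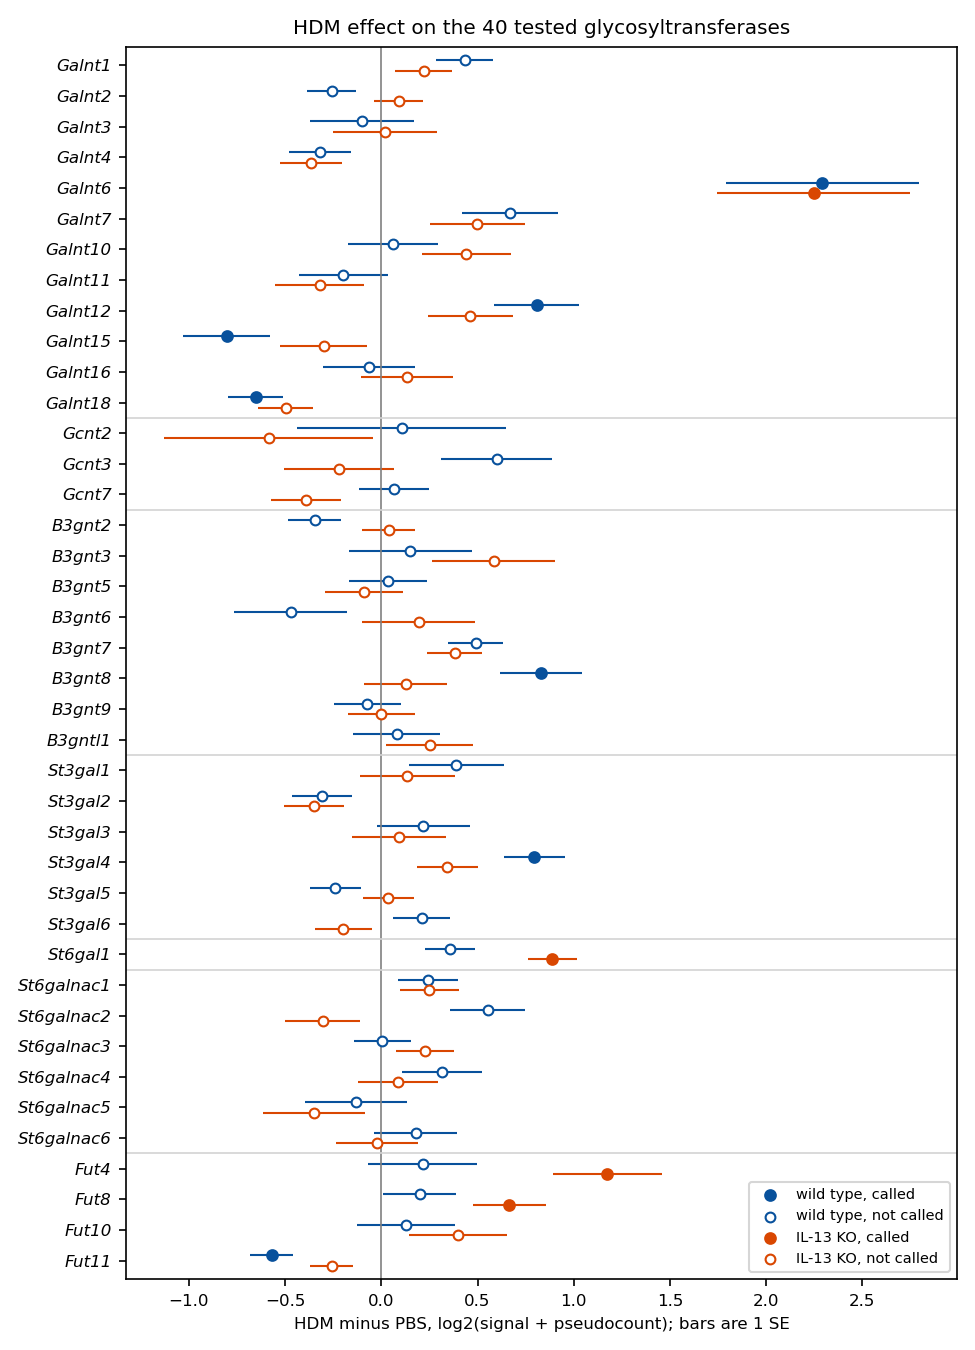
HDM minus PBS for the 40 tested glycosyltransferases in wild type (blue) and IL-13 KO (orange), on the log2(signal + pseudocount) scale, in family order; bars are 1 SE and filled points are called by limma at an adjusted p under 0.05. Galnt6 stands farthest to the right in both genotypes (2.29 and 2.25), and St6gal1, Fut4 and Fut8 are filled in KO only, a difference between genotypes for which limma called none of the 40.

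Galnt6, a starting enzyme closely related to Galnt3, had the widest rise. Its signal in wild type was 39.8, 80.9 and 62.4 after PBS and 276, 250.1 and 527 after HDM. In KO it was 128, 15.5 and 103 after PBS and 357, 338 and 339 after HDM. Every HDM sample lay above every PBS sample in both genotypes, and KO PBS replicate 2 was the lowest of all 12. The log2 difference was 2.29 ± 0.50 (SE) in wild type, a 4.90-fold rise (limma, adjusted p = 0.0148), and 2.25 ± 0.50 in KO (adjusted p = 0.0159). The interaction, the KO effect minus the wild-type effect, was -0.05, with a 95% interval of -1.59 to 1.501, so differences of more than 1 log2 unit in either direction lie within it. The wild-type call was lost without wild-type PBS replicate 1 (adjusted p = 0.0561), without wild-type HDM replicate 3 (0.0736) or without the 3 samples with muscle RNA (0.0627), and the KO call without any single KO HDM sample (0.0503 to 0.0515). Without the 3 samples whose arrays matched the other genotype the KO value was 1.35 (0.06). Without KO PBS replicate 2 alone it was 1.497 and still called (0.017). A second tested probe set of Galnt6 did not show the rise: its differences were 0.30 in wild type (limma, adjusted p = 0.648) and -0.01 in KO (0.99). After PBS it had signals of 81.3, 87.0 and 51.9 in wild type and 58.1, 99.3 and 121.7 in KO. The representing probe set had the higher mean over the 12 samples (209.7 against 87.7) through its HDM samples. It was thus chosen partly by the values compared here. Yet another probe set, with a mean signal of 19.0, lay under the filter.

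Galnt12, another starting enzyme, had signals of 132, 113 and 109 in wild type after PBS and 178, 245 and 225 after HDM. The KO signals were 145, 91.1 and 132 after PBS and 218, 183 and 123 after HDM. The wild-type groups did not overlap, whereas KO HDM replicate 3 lay within the KO PBS values. The wild-type difference was 0.81 ± 0.22 (adjusted p = 0.045), and the KO difference of 0.46 was not called (0.241). Galnt12 stayed called in 7 of the 22 alternatives that keep its probe set, which is how such counts are given for every gene here. The call was lost when the array sets were fitted separately (limma, adjusted p = 0.1). Without the 3 samples with muscle RNA the adjusted p was 0.265 (0.85), and without the 3 whose arrays matched the other genotype it was 0.154 (0.77).

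Galnt18, an atypical member of the starting family, was bright in every sample. Its wild-type signal was 2060, 1830 and 1782 after PBS and 1238, 1094 and 1259 after HDM. In KO it was 2220, 1662 and 1713 after PBS and 1544, 1111 and 1303 after HDM. The HDM samples lay below the PBS samples in both genotypes. It fell by 0.65 ± 0.14 in wild type (adjusted p = 0.0144), and the KO difference was -0.50 ± 0.14, just outside the threshold (0.051). The wild-type call was lost without wild-type PBS replicate 1 (0.0533), without wild-type HDM replicate 2 (0.0596) or without the 3 samples with muscle RNA (-0.60, 0.227).

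Galnt15, also of the starting family, had signals of 293, 213 and 195 in wild type after PBS and 144, 167 and 83.6 after HDM. KO samples gave 171, 221 and 192 after PBS and 148, 156 and 162 after HDM. The HDM samples of each genotype lay below its PBS samples. The wild-type difference was -0.80 ± 0.23 (adjusted p = 0.0488), and it stayed called in 5 of 22 alternatives. The call was lost when the array sets were fitted separately (limma, adjusted p = 0.1). Wild-type HDM replicate 3 was the lowest sample, and without it the difference was -0.53 (0.162). Without the 3 samples whose arrays matched the other genotype it was also -0.53 (0.212), and without the 3 samples with muscle RNA it was -1.40 (0.0261). In KO the difference was -0.30 (0.479).

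Endothelial markers, given here because they fell with Galnt15, Galnt18 and Fut11, summed to 7594 to 8438 in wild type after PBS and 4404 to 5189 after HDM. In KO the sums were 7314 to 8161 after PBS and 4845 to 5026 after HDM. Of the 8 markers, 7 were lower in wild type, 6 in KO and none higher, with no marker at 0. Alveolar type 1 markers were lower without overlap too. Their sums were 23910 to 29030 after PBS and 15240 to 20090 after HDM in wild type, and 28860 to 32710 and 21250 to 23640 in KO. Ciliated cell markers were at 1650 to 1661 and 758 to 899 in wild type and at 1879 to 2112 and 1091 to 1363 in KO, in the same order. Of 7 alveolar type 1 markers, 4 were called lower in wild type and 3 in KO, and of 7 ciliated markers 2 and 1. Club cell markers were at 21440 to 25170 after PBS and 14170 to 17290 after HDM in wild type, with 4 of 7 lower. In KO the club cell sums overlapped (19750 to 24530 and 20090 to 20530), with 3 of 7 markers called lower and 1 higher. The part of these cell types in the falls of Galnt15, Galnt18 and Fut11 was not tested.

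Galnt7, a follow-up enzyme that prefers peptides already carrying the first sugar, was not called on its representing probe set, at 85.6, 89.3 and 108 in wild type after PBS and 123, 163 and 180 after HDM. These groups did not overlap, and the difference was 0.67 ± 0.25 (adjusted p = 0.138). Its other tested probe set was called, with signals of 58.0, 55.8 and 45.6 after PBS and 99.5, 112 and 99.3 after HDM, a difference of 0.88 ± 0.17 (0.00711). Another probe set, under the filter, had 1.29 (0.0544 in the fit without a filter). Thus the 3 probe sets had values on the same side of 0 in wild type. In KO the values were 0.50, 0.57 (0.257 and 0.058) and 0.38.

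Galnt1, a broadly expressed starting enzyme, had signals of 259, 348 and 261 in wild type after PBS and 348, 379 and 447 after HDM, a difference of 0.43 ± 0.15 (adjusted p = 0.109). The lowest HDM sample was barely above the highest PBS sample. Its KO difference was 0.22 (0.426). The remaining tested starting enzymes, Galnt2, Galnt3, Galnt4, Galnt10, Galnt11 and Galnt16, had wild-type differences of -0.32 to 0.06 and KO differences of -0.36 to 0.44, none called by limma. Galnt4 had a dimmer probe set that was called in KO, with signals of 42.8, 49.9 and 46.3 after PBS and 11.3, 25.7 and 12.2 after HDM. Its difference was -1.24 ± 0.27 (0.0136), while the representing probe set had -0.36 (0.202).

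The branching enzymes were few and none was called. Gcnt3, which makes branches on mucins, had signals of 39.1, 108 and 51.3 in wild type after PBS and 104, 93.4 and 97.0 after HDM. In KO it had 62.5, 65.6 and 59.7 after PBS and 57.0, 66.1 and 37.0 after HDM. Wild-type PBS replicate 2, a sample with skeletal muscle signal, was the highest of all 12, so the wild-type groups overlapped. After HDM every KO sample lay below every wild-type sample. The limma differences were 0.60 in wild type (adjusted p = 0.274), -0.22 in KO (0.711) and -0.79 for KO against wild type after HDM (0.447).

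Gcnt7, a relative of the branching enzymes, had signals of 118, 98.7 and 136 in wild type after PBS and 139, 124 and 107 after HDM. KO samples gave 168, 173 and 211 after PBS and 149.5, 156 and 110.1 after HDM. The KO PBS samples lay above the wild-type PBS samples, with a difference of 0.60 ± 0.18 that was not called by limma (adjusted p = 0.523). Gcnt2, which branches the chains that carry the I blood group antigen, had differences of 0.11 in wild type and -0.59 in KO with an SE of 0.54, the latter not called (0.577). Its wild-type PBS signals were 264, 33.9 and 249, the low one being the sample with skeletal muscle signal. Its other tested probe sets had wild-type differences of -0.79, -0.77 and -0.40 (limma, adjusted p = 0.0761, 0.0576 and 0.356). In KO they had -0.63, -0.47 and -0.35, and none was called. Probe sets of Gcnt2 under the filter had wild-type values of both signs (-0.33 to 0.50). Gcnt1, the branching enzyme of leukocyte selectin ligands, lay under the filter. Its signals were 27.3, 5.23 and 19.7 in wild type after PBS and 59.3, 55.4 and 37.8 after HDM. In the fit without a filter its difference was 1.19 ± 0.33 (0.0659), and in KO it was 0.56 (0.41).

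Of the extending enzymes, 1 of 8 tested was called in wild type and 0 in KO, where limma gave 1 at an unadjusted p under 0.05. B3gnt8, which lengthens lactosamine chains on N-glycans, had signals of 24.4, 28.0 and 20.5 in wild type after PBS and 49.5, 48.3 and 47.3 after HDM. In KO it had 46.7, 36.2 and 36.4 after PBS and 54.2, 32.8 and 46.8 after HDM. The KO PBS samples lay above all wild-type PBS samples, and the KO HDM samples overlapped the KO PBS samples. The wild-type difference was 0.83 ± 0.21 (adjusted p = 0.0346), and the KO difference was 0.13 (0.786). The interaction of -0.70, with a 95% interval of -1.36 to -0.04 that is not adjusted over genes, was not called (0.857). B3gnt8 stayed called in 10 of 21 alternatives, and was lost without any single wild-type sample. It was also lost without the 3 samples with muscle RNA (0.89, 0.249) and without the 3 whose arrays matched the other genotype (0.84, 0.15). Its signal is close to the filter, which on set A stood at a signal of 31.97. Every wild-type PBS sample lay under this value, so B3gnt8 passed the filter through its other samples. In the fit without a filter the wild-type call was lost (limma, adjusted p = 0.0627).

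B3gnt7, an enzyme of keratan sulfate chains, had signals of 313, 295 and 319.9 in wild type after PBS and 431, 358 and 546 after HDM. The KO signals were 369.9, 425 and 409 after PBS and 536, 483 and 558 after HDM. The HDM samples were the higher in both genotypes, with differences of 0.49 ± 0.14 in wild type (adjusted p = 0.0562) and 0.38 ± 0.14 in KO (0.127), neither called. B3gnt2, a main enzyme of lactosamine extension, had 208, 203 and 209 in wild type after PBS and 194, 145 and 148 after HDM, a difference of -0.35 (0.17). Its KO difference was 0.04 (0.909). The others, B3gnt3, B3gnt5, B3gnt6, B3gnt9 and B3gntl1, had wild-type differences of -0.47 to 0.15 and KO differences of -0.09 to 0.58, none called.

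Among the enzymes that add sialic acid to galactose, St3gal4 rose in wild type and St6gal1 rose in KO. St3gal4, which caps selectin ligand chains, had signals of 227, 293 and 374 in wild type after PBS and 520.4, 554 and 465 after HDM. The KO signals were 283, 306 and 262 after PBS and 353, 351 and 378 after HDM. The HDM samples lay above the PBS samples in both genotypes, and every KO HDM sample lay below every wild-type HDM sample. The wild-type difference was 0.80 ± 0.16, a 1.74-fold rise (adjusted p = 0.00874). It stayed called in 21 of 22 alternatives, the exception (0.66, 0.238) being the fit that drops the 3 samples with muscle RNA and keeps 1 wild-type HDM sample. The KO difference was 0.34 (0.225), the interaction -0.45 with an unadjusted 95% interval of -0.94 to 0.04, and KO against wild type after HDM -0.50 (0.339), none called.

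St6gal1 makes the sialylated end of N-glycans that is the ligand of CD22 on B cells, and it also acts on immunoglobulins. Its signal was 347, 335 and 314 in wild type after PBS and 397, 388 and 506 after HDM. In KO it was 327, 399 and 365 after PBS and 664, 637 and 733 after HDM. The KO HDM samples stood above all other samples. The KO difference was 0.89 ± 0.13, a 1.85-fold rise (adjusted p = 0.00122), and it stayed called in all 22 alternatives that keep this probe set (0.000252 to 0.0162). The wild-type difference was 0.36 ± 0.13 (0.124), and the interaction of 0.53, with an unadjusted 95% interval of 0.14 to 0.92, was not called (0.77).

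St6gal1 was also the 1 of 40 genes called between KO and wild type after HDM (2.5%), where 0.677% of all tested genes were called. At an unadjusted p under 0.05 limma gave 7 of the 40. The difference was 0.66 ± 0.13 (adjusted p = 0.0499), and it stayed called in 4 of 22 alternatives. Without the 3 samples with muscle RNA it was 0.41 (0.578), and without the 3 whose arrays matched the other genotype 0.78 (0.0645). A dimmer probe set of St6gal1 had differences of 0.46 in KO (0.326) and 0.11 between the genotypes after HDM (0.957), neither called. Plasma cell markers rose with St6gal1 in KO, with sums of 3360 to 4873 after PBS and 19880 to 24930 after HDM and 5 of 8 markers called. After HDM they summed to 10660 to 13880 in wild type, below the KO sums without overlap, with 1 of 8 markers called higher in KO. B cell markers overlapped, at 1835 to 3161 and 2186 to 2648, with 0 of 7 called by limma. Mast cell and basophil, NK and cytotoxic cell and cell cycle markers also rose with HDM in KO. After HDM they too were higher in KO than in wild type without overlap, with 0 called between the genotypes. Their sums were 1353 to 1648 against 828 to 960, 1001 to 1252 against 778 to 790, and 1585 to 1651 against 1159 to 1387. The NK and cytotoxic cell sums were already higher in KO after PBS without overlap (800.4 to 993.6 against 565.1 to 680.5), with 0 of 6 called. No marker of these lists was at 0, and the part of any of them in the St6gal1 values was not tested. The actin ratio, which was lower in KO after HDM than in wild type after HDM, moves with the same comparison and was not tested either.

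The other members of the St3gal family were not called. St3gal2 had signals of 203, 253 and 196 in wild type after PBS and 189.7, 166 and 164 after HDM, and 208, 201 and 228 in KO after PBS and 186, 179.8 and 134 after HDM. The HDM samples were the lower in both genotypes, with limma differences of -0.31 in wild type (adjusted p = 0.31) and -0.35 in KO (0.212). St3gal6, measured by a probe set whose suffix marks probes that can match other transcripts, had differences of 0.21 and -0.20. St3gal1, St3gal3 and the ganglioside enzyme St3gal5 had wild-type differences of -0.24 to 0.39 and KO differences of 0.04 to 0.14. A dimmer probe set of St3gal5 was called in KO, with 111, 103 and 102 after PBS and 57.8, 73.5 and 58.6 after HDM. That difference was -0.68 ± 0.19 (0.0442), where the representing probe set had 0.04 (0.911).

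St6galnac2, which adds sialic acid to the inner galactosamine of O-glycans, had the largest difference between the genotypes after HDM among the representing probe sets of the 40 tested genes. Its signal was 125, 169 and 104 in wild type after PBS and 189, 186 and 208 after HDM. In KO it was 111, 128 and 113 after PBS and 84.8, 118 and 81.5 after HDM. All wild-type HDM samples lay above all other samples. KO against wild type after HDM gave -1.001 ± 0.196, which missed the threshold narrowly (adjusted p = 0.0504). The wild-type difference was 0.55 (0.119), the KO difference -0.31 (0.393), and the interaction of -0.86 ± 0.28 had the smallest adjusted p among the 40 genes, 0.71. St6galnac2 lies on chromosome 11, which also carries Il13, and its difference between KO and wild type after PBS was -0.14 (0.924).

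Goblet cell markers, which moved the same way between these groups, summed to 5914 to 7177 in wild type after HDM and 2001 to 2425 in KO after HDM. Of 6 tested goblet markers 3 were lower in KO after HDM, and none of the 8 on the arrays was at 0. After PBS the sums were 496 to 728 in wild type and 372 to 553 in KO. Smooth muscle markers moved the same way too, at 5016 to 5784 in wild type after HDM and 1995 to 2197 in KO after HDM, with 6 of 7 called lower in KO and none at 0. Macrophage, eosinophil and skeletal muscle markers were also higher in wild type than in KO after HDM without overlap, with 0 called between the genotypes. Their sums were 10810 to 11950 against 9145 to 9819, 2323 to 2561 against 1664 to 2081, and 354.8 to 6557 against 207.5 to 324.2. The part of any of these cell types or of the actin ratio in the St6galnac2 values was not tested.

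St6galnac1, which makes the short sialylated chain called sialyl-Tn, had limma differences of 0.24 in wild type (adjusted p = 0.434) and 0.25 in KO (0.374). Its signals were 232, 206 and 259 in wild type after PBS and 308, 281 and 243 after HDM, so the groups overlapped. St6galnac4, St6galnac5 and St6galnac6 had wild-type differences of -0.13 to 0.32 and KO differences of -0.35 to 0.09. St6galnac3 was not called on its representing probe set, at 0.00 in wild type and 0.23 in KO. A dimmer one was called lower in both, with 103, 118 and 88.4 in wild type after PBS against 66.1, 45.9 and 57.9 after HDM. In KO that probe set had 102, 118 and 98.3 after PBS and 67.7, 67.4 and 59.0 after HDM. Its differences were -0.79 (0.0219) and -0.66 (0.0488), so the probe sets of this gene disagreed.

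The fucosyltransferases moved in different directions. Of the 4 tested, Fut11 fell in wild type, and Fut4 and Fut8 rose in KO. Fut4, which makes Lewis x and related structures of leukocytes, had signals of 159.8, 101 and 109 in wild type after PBS and 197, 92.7 and 157 after HDM. In KO it had 87.3, 65.2 and 112 after PBS and 217, 159.6 and 261 after HDM. The KO groups did not overlap, the wild-type groups did, and wild-type HDM replicate 2 lay below every wild-type PBS sample. The KO difference was 1.17 ± 0.28, a 2.26-fold rise (adjusted p = 0.0233), and the wild-type difference 0.22 (0.75). The interaction was 0.96 with an unadjusted 95% interval of 0.09 to 1.83, not called (0.854). The KO call was lost without KO PBS replicate 1 or 2 or KO HDM replicate 1 or 3 (0.0642 to 0.0988), and without the 3 samples whose arrays matched the other genotype (1.16, 0.218).

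Fut8, the enzyme that fucosylates the core of N-glycans, had signals of 218, 194 and 126 in wild type after PBS and 177, 195 and 238 after HDM. KO samples gave 174, 155 and 189 after PBS and 267, 286 and 278 after HDM. The KO HDM samples stood above all others. The KO difference was 0.67 ± 0.19 (adjusted p = 0.0487), called in 7 of 22 alternatives, and the wild-type difference was 0.20 (0.635). The KO call was lost without the 3 samples with muscle RNA (0.066) and without the 3 whose arrays matched the other genotype (0.65, 0.308). A second tested probe set, with signals of 9.35 to 196, had -0.35 ± 0.70 in KO (0.824).

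Fut11, related by sequence to the enzymes of Lewis structures, had signals of 491, 523 and 427 in wild type after PBS and 334, 324 and 299.9 after HDM. In KO it had 471, 455 and 421 after PBS and 394, 349 and 377 after HDM. The HDM samples lay below the PBS samples in both genotypes. It fell by 0.57 ± 0.11 in wild type (adjusted p = 0.00767), and the KO difference was -0.26 (0.19). The wild-type call held in 20 of 22 alternatives. It was lost without the 3 samples with muscle RNA (-0.59, 0.114) and without the 3 whose arrays matched the other genotype (-0.53, 0.0757). Its 2 other tested probe sets had wild-type differences of -0.08 and -0.02, not called. Fut10, another relative, had differences of 0.13 in wild type (0.846) and 0.40 in KO (0.387).

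**Figure D2:**
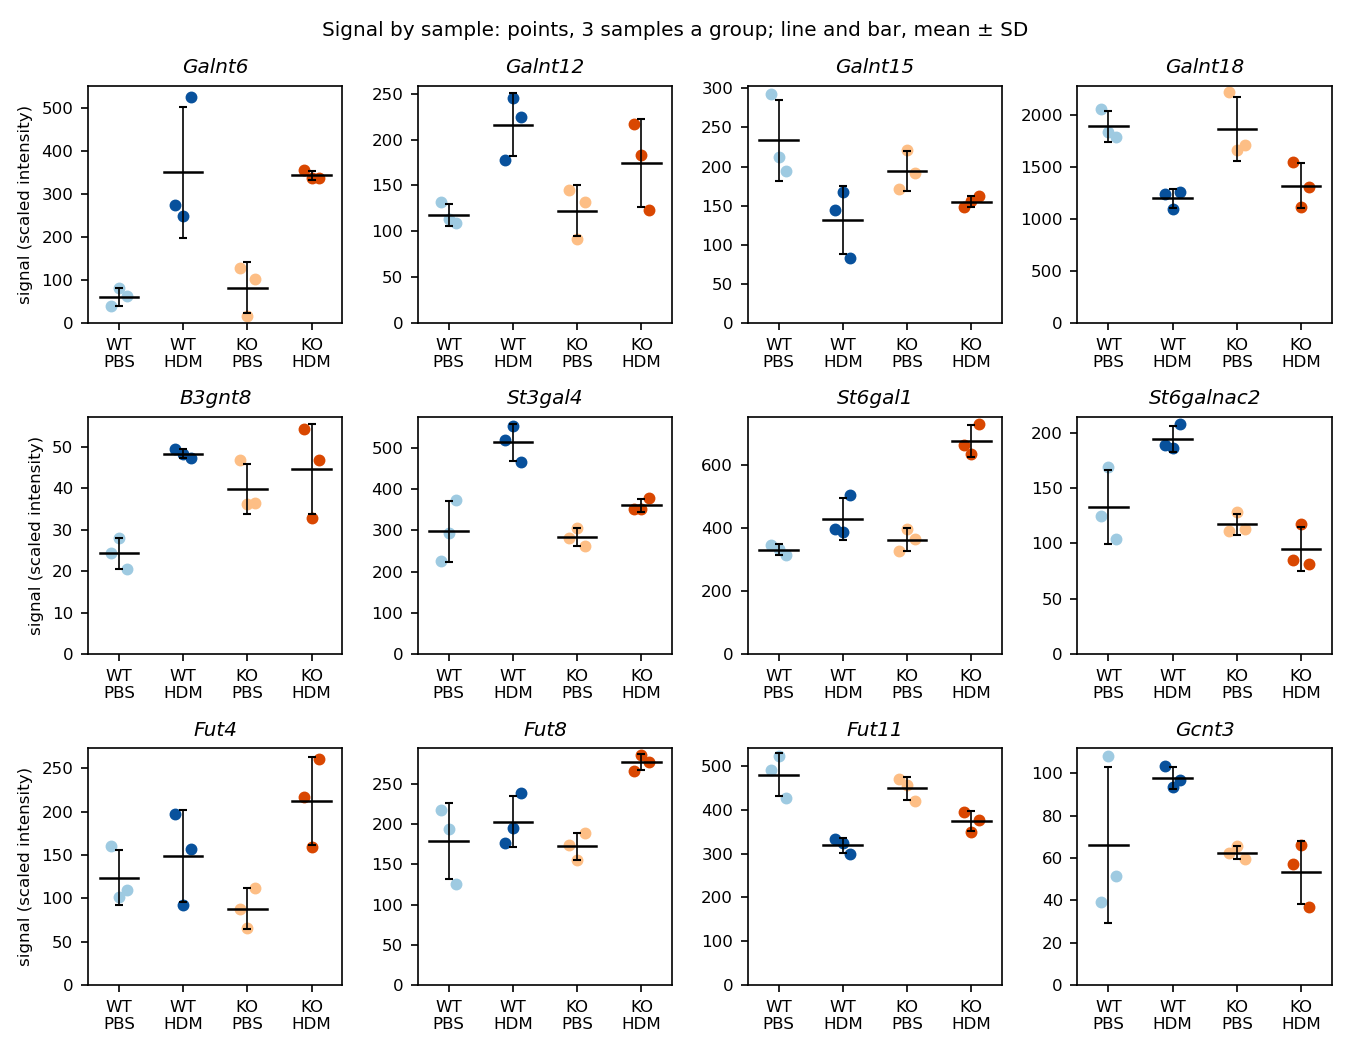
Signal (scaled intensity, linear axis from 0) of the 10 called genes, St6galnac2 and Gcnt3 in each of the 12 samples; points are samples, the line is the group mean and the bar 1 SD (n = 3). Galnt6 is higher after HDM in both genotypes, St6gal1 and Fut8 are highest in KO after HDM, and St6galnac2 is highest in wild type after HDM (186 to 208) and 81.5 to 118 in KO after HDM.

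No glycosyltransferase was called in the interaction or between the genotypes after PBS. For the interaction, limma called 0 of 40, with 4 at an unadjusted p under 0.05 (B3gnt8, Fut4, St6gal1 and St6galnac2), where 0.159% of all genes were called. The median interaction was -0.04 over the 40 and 0.02 over all genes. After PBS limma called 0 of 40, with 6 at an unadjusted p under 0.05 and a smallest adjusted p of 0.523, where 0.0207% of all genes were called. These 6 were B3gnt3, B3gnt7, B3gnt8, B3gnt9, Gcnt7 and St3gal5, with differences of -0.71, 0.36, 0.58, 0.38, 0.60 and -0.33. Their signs were mixed, and no share of all genes at this unadjusted p stands beside the count. The 5 genes on the chromosome of Il13, B3gnt2, B3gntl1, Galnt10, St6galnac1 and St6galnac2, were all tested, and limma called 0 of them after PBS.

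The choice of probe set mattered for several genes. Of the 40 tested genes, 17 had at least 2 tested probe sets. Counting a gene as called where any of its probe sets was called gave 9 genes in wild type, adding Galnt7 and St6galnac3, and 7 in KO, adding Galnt4, St3gal5 and St6galnac3. Several probe sets give any gene more chances of a call, and no share of all genes under this rule stands beside these counts. None of the other tested probe sets of Galnt6, Fut11, St6gal1 and Fut8 was called in the comparison where the representing one was. B3gnt8, St3gal4, Galnt12 and Galnt18 had a single probe set, and those of Galnt15 and Fut4 other than the representing one lay under the filter. Probe sets of a gene can measure different ends or forms of its transcript, which was not tested.

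**Figure D3:**
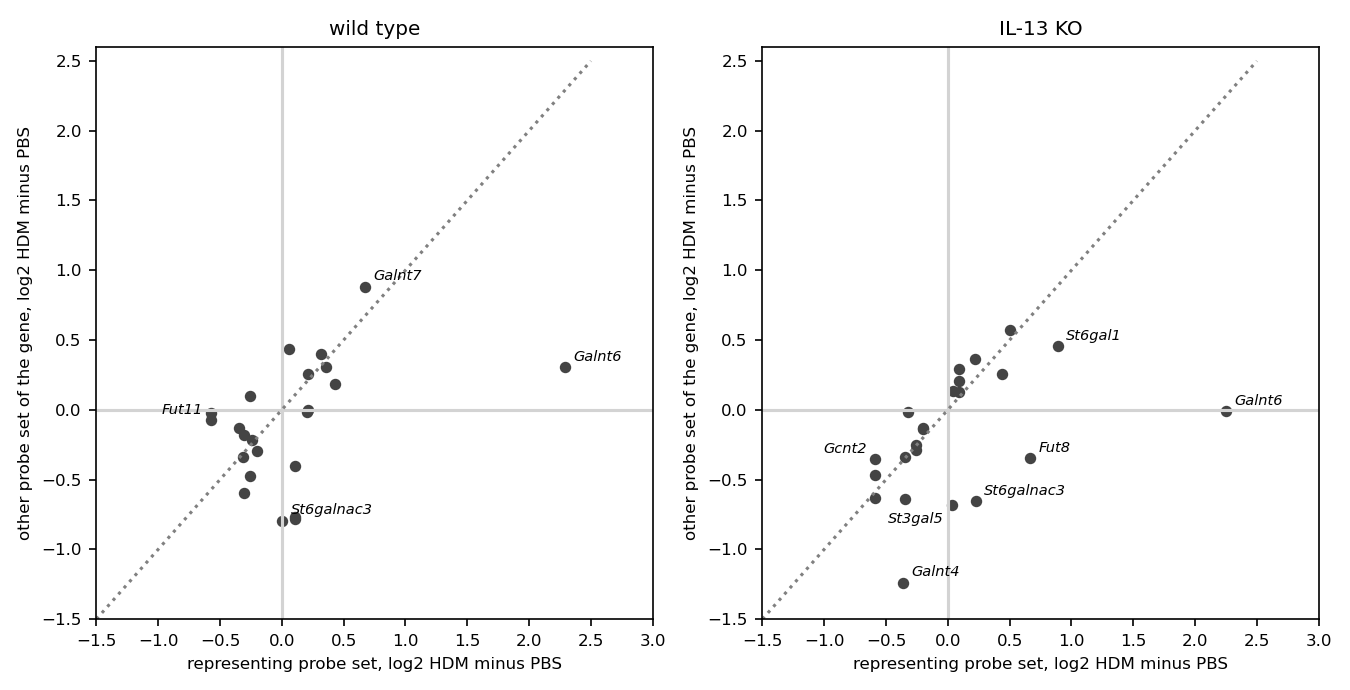
HDM minus PBS, log2(signal + pseudocount), of each further tested probe set of a gene (vertical) against the probe set that represents the gene (horizontal), in wild type and KO; the dotted line marks equal values. Galnt7 lies near the line in wild type (0.67 and 0.88), whereas Galnt6 (2.29 and 0.30 in wild type) and St6galnac3 (0.23 and -0.66 in KO) lie far from it.

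The 13 genes under the filter were Galnt5, Galnt9, Galnt13, Galnt14, Galntl5, Galntl6, Gcnt1, B3gnt4, St6gal2, Fut1, Fut2, Fut7 and Fut9, with mean signals of 2.93 to 41.5. Fitted without a filter, 1 of them was called in any comparison. Fut1, which makes the H antigen, had 1.74, 2.55 and 4.35 in KO after PBS and 17.3, 7.80 and 28.2 after HDM, a limma difference of 1.25 ± 0.28 (adjusted p = 0.0225). Its wild-type signals of 2.46 to 8.07 spanned both treatments, and all of these values are near the bottom of the array's range. Fut2, the secretor gene that fucosylates mucins, had 22.1, 18.3 and 34.3 in wild type after PBS and 71.5, 76.7 and 34.8 after HDM. The HDM samples were the higher, but the difference of 0.97 ± 0.52 was not called (0.404), and in KO it was 0.50 (0.675). Fut7, the leukocyte enzyme of sialyl Lewis x, had 0.13 in wild type (0.929) and -0.47 in KO (0.571). St6gal2 ranged from 4.07 to 72.5 over the samples and Fut9 from 3.29 to 87.4, so single values of these genes carry little precision.

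Around these enzymes, lists of the rest of the pathway showed a few changes each. Of 17 tested galactosyltransferases, which build the cores and lactosamine units, B4galnt1 rose in wild type (0.77 ± 0.15, adjusted p = 0.00791) and B4galt5 in KO (0.71 ± 0.12, 0.00324), each 1 of 17. Of 6 glycan sulfotransferases, Chst2 fell in both genotypes, by 0.76 in wild type (0.0481) and by 0.77 in KO (0.0416). Of 6 St8sia enzymes, which add further sialic acid to sialylated chains, St8sia6 rose in KO, from 194 ± 14.2 (SD, n = 3) to 493 ± 74.1 (1.29, 0.00158). In wild type St8sia6 had 0.64 (0.0641).

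The supply of activated sugars showed 0 of 28 tested genes called in wild type, with Gfpt1, the first enzyme of the hexosamine route, having the smallest p (0.54, adjusted p = 0.101). In KO 2 of 28 rose: Nans, the sialic acid synthase (1.04 ± 0.18, 0.00392), and Gmppa, a regulator of GDP-mannose formation (0.51 ± 0.11, 0.0139). The medians of the list were 0.15 and 0.18. Of 12 N-glycan processing genes, Man1c1 rose in wild type (0.48, 0.00879), and Mgat2 (0.50, 0.0215) and Man2a1 (0.72, 0.00742) rose in KO. These counts of 0 to 2 stand beside a background of 10.6% in wild type and 11% in KO.

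Substrates and degrading enzymes were the last lists, read beside the 10.6% and 11% of all genes called. Of 15 tested mucin-type acceptor proteins, 4 rose in both genotypes, namely the gel-forming mucins Muc5ac and Muc5b, the mucus protein Fcgbp and the leukocyte selectin ligand Selplg. Selplg went from 214 ± 12.02 to 404 ± 88.4 in wild type (0.88, adjusted p = 0.012) and from 239.7 ± 47.5 to 613 ± 114 in KO (1.33). Muc5b, Muc5ac and Fcgbp were lower in KO than in wild type after HDM. Of 6 tested lysosomal glycosidases that remove sugars, Neu1, Glb1, Hexa and Gla rose in wild type and Hexa and Gla in KO, with Hexa going from 546 ± 27.3 to 1296 ± 163 in wild type (1.23). The median of this list was 0.62 in wild type and 0.60 in KO, beside -0.00 and 0.01 over all genes. Macrophage markers moved with it, summing to 2587 to 3038 in wild type after PBS and 10810 to 11950 after HDM, with 9 of 10 markers higher and none at 0. Their part was not tested.

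**Figure D4:**
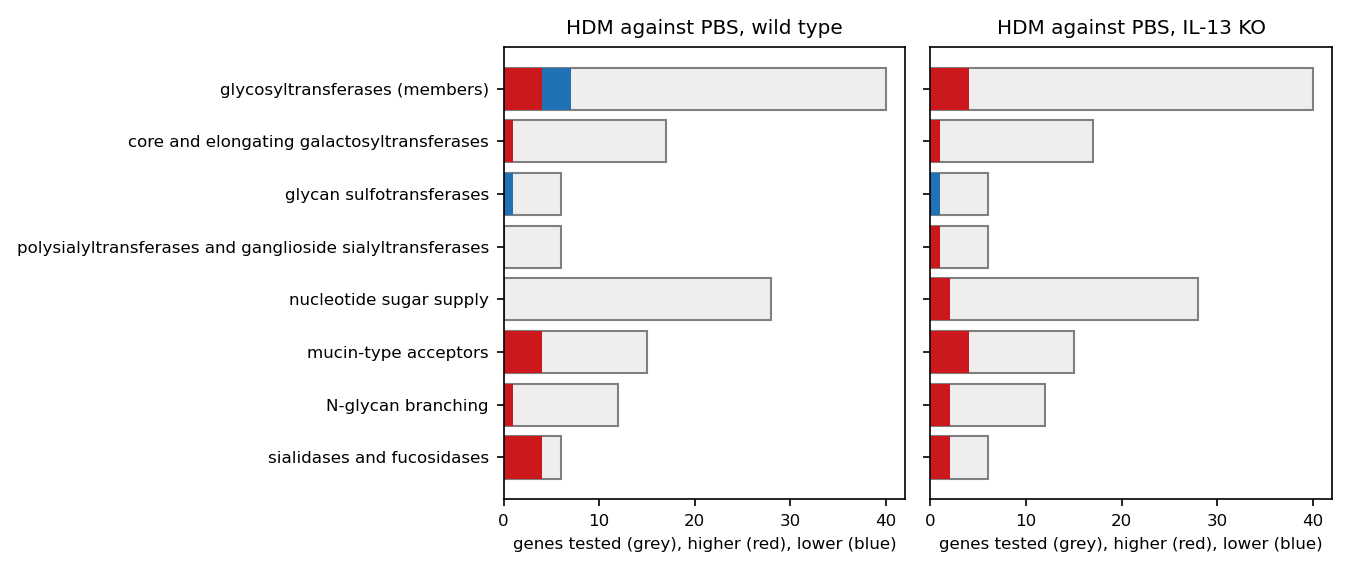
Number of tested genes (grey bars), genes called higher (red) and genes called lower (blue) after HDM for the 40 glycosyltransferases and 7 further glycan lists, in wild type and IL-13 KO (limma, adjusted p under 0.05). The lysosomal list, labelled sialidases and fucosidases, has 4 of 6 genes higher in wild type, and the glycosyltransferases have 4 higher and 3 lower of 40.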

How the data were processed

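Lung RNA of 12 samples was measured on 24 arrays (sets A and B). The deposited values are linear intensities, with the software unstated in the sources used here. All 24 arrays share a 2%-trimmed mean of 150, which shows that the authors scaled them; that scaling was kept. Platform annotation supplied gene names, and promoter windows came from RefSeq (GRCm38.p6). Values were converted to log2(value + pseudocount), using each set's 10th percentile (7 and 11). Controls and probe sets averaging below the 30th percentile of a set were dropped, leaving 31496, with the 100 shared probe sets tested on set A only. One model of the 4 groups (8 residual degrees of freedom) was fitted with limma 3.58.1 in R 4.3.3, using eBayes with intensity trend; p-values were adjusted (Benjamini-Hochberg) across all of them at 0.05; the code was tested on simulated data. The number of arrays limits the precision. All 53 genes are accounted for; named with statistics are genes called in any comparison and up to 2 others per family with the smallest p, plus up to 4 called genes per pathway list. The genes and lists were chosen with earlier results of these data known. Replicate numbers did not pair samples (correlations of deviations -0.09 to 0.17). Alternatives changed the normalization, pseudocount, filter, variance trend, sets, replicate block, probe set and samples left out.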

Additional observations from a re-analysis of the deposited data

Results flagged for a closer look

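Fcgbp, a mucus protein on the list of mucin-type acceptors, had an HDM effect that differed between the genotypes: the interaction was -1.47 ± 0.23 (log2 ± SE, adjusted p = 0.0465). Wild-type signal was 152 ± 27.0 after PBS and 859 ± 62.9 after HDM, and KO signal 108 ± 20.6 and 219.7 ± 21.1 (mean ± SD, n = 3). None of the 53 glycosyltransferases met this or another criterion for a closer look.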

How the results depend on the processing

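Over the alternatives that keep the probe set of a gene, 21 for B3gnt8 and 22 for the others, none of the calls of the 10 called genes changed direction. The call of St6gal1 in KO held in all 22, that of St3gal4 in wild type in 21 and that of Fut11 in 20. The second-highest tested probe set, which 4 called genes have, was not called for any of them, and in KO its value had the other sign for Fut8 (-0.35 against 0.67) and Galnt6 (-0.0101 against 2.25). For St6gal1 in KO it was 0.46 (adjusted p = 0.326) and for Fut11 in wild type -0.02 (0.966). In wild type the count of 7 called genes was 4 without a filter, 4 with the replicate block, 2 when the 3 muscle-containing samples were dropped (1 wild-type HDM sample remains), 3 without the 3 samples whose arrays matched the other genotype (an alternative chosen after seeing the data) and 2 of 17 on the second-highest probe set. Leaving out 1 sample gave 2 to 6. Each of these counts takes any gene called in that setting, so it can hold genes outside the 7. On the second-highest probe set the called genes were Galnt7 and St6galnac3, neither of them among the 7. In KO the count of 4 was 1 without the 3 samples whose arrays matched the other genotype and 7 with any probe set, and leaving out 1 sample gave 1 to 4. Between KO and wild type after HDM the count of 1 was 0 with quantile normalization, a pseudocount of 1, no filter, no intensity trend, the replicate block, either set of 3 samples left out or the second-highest probe set. It was 2 with a pseudocount of 32, the 50th percentile filter or the array sets fitted separately, and 0 to 1 leaving out 1 sample. The counts of 0 in the interaction and after PBS stayed 0 throughout. The share of all genes called can also change with these settings and is not given beside the counts. With quantile normalization the median over the 40 genes between KO and wild type after HDM went from -0.03 to 0.01. The replicate numbers did not pair the samples. Fits that leave 1 sample in a group assume that it varies like the other groups.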
